A study of Mus musculus with 3 samples.

Results

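The respiratory chain of mouse aortic endothelial cells was described through 97 of the 18287 genes listed in the deposited tables. These were all protein-coding rows whose symbol names a subunit of complexes I to V, cytochrome c1 or cytochrome c, or begins with the mitochondrial prefix. Of the 97, 84 were nuclear genes and 13 were encoded in the mitochondrial genome. The rule itself used symbols and gene type only, but it was chosen with earlier results of these data known. The nuclear genes comprised 36 of complex I, 4 of complex II, 9 of complex III including Cyc1, Cycs alone, 16 of complex IV, 17 of complex V and the supercomplex factor Cox7a2l. Ndufa4 and its paralogue Ndufa4l2 were counted with complex IV.

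The cells were purchased primary cultures of mouse aorta endothelium, and messenger RNA libraries were sequenced from 3 groups with 1 library each. The control group was labelled as such and carried no agent in its label. Cells of the second group were exposed for 30 min to 5 mU/mL of glucose oxidase, which oxidises glucose and releases hydrogen peroxide. The third group received the same glucose oxidase treatment together with ethyl-2-hydroxybenzylamine (Et2HOBA), a scavenger of reactive lipid aldehydes, at 0.2 mM for 24 h. The labels do not give the order of these 2 exposures, nor the strain, age or sex of the donor mice, and a library given Et2HOBA alone was not analysed here. With 1 library per group there was no replicate check and no test between conditions. Every interval below is an exact Clopper-Pearson interval at 95% on the reads of 2 libraries, covers counting error only, and compares libraries rather than treatments.

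The respiratory chain passes electrons from NADH through complex I, or from succinate through complex II, to ubiquinone, then through complex III and cytochrome c to oxygen at complex IV. The proton gradient built on the way drives the ATP synthase, complex V. Most subunits are encoded in the nucleus and imported, while a small set of core membrane subunits of complexes I, III, IV and V is transcribed inside the organelle, as long polycistronic RNAs that are cut at transfer RNAs. Aortic endothelial cells make much of their ATP by glycolysis, and their mitochondria are also known as a source of signalling oxidants.

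The listed genes held 35969965 control reads, 35005089 reads after glucose oxidase alone and 40212212 with Et2HOBA added. Endothelial markers were present in each library: all 10 were listed, and Cdh5, the adhesion molecule of endothelial junctions, had 55360, 45034 and 63665 reads in that order. The 10 markers together had a normalized sum of 354900 reads in control and of 228200 and 208000 in the treated libraries, and 9 and 8 of the 10 lay below control, with median log2 ratios of -0.59 and -1.01. Of the 10, 3 were called lower after glucose oxidase and 5 with Et2HOBA, at the limit of 1 log2 unit described below. The shares called lower were 8.6% and 8.04% of all listed genes, and 4.76% and 9.3% of listed protein-coding genes. Tek, the angiopoietin receptor, had 6786, 2877 and 1688 reads, and Vwf, von Willebrand factor, had 46607, 21567 and 12545. The 4 listed smooth muscle markers together had 44, 71 and 99 reads. Among fibroblast markers Dcn, Lum and Col1a2 were not listed, Col1a1 had 28, 30 and 23 reads, and Pdgfra had 107, 1325 and 2821. Among leukocyte markers Ptprc, Adgre1 and Itgam were not listed, Csf1r had 6, 12 and 10 reads, and Cd68, a lysosomal protein, had 8215, 17067 and 27799. The part of these marker differences in the values below was not tested, and in bulk RNA fewer cells of a type cannot be told apart from less RNA per cell.

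Several mitochondrial genes have near-identical copies in the nuclear genome, and the sequences below show how little separates a gene from its copy. The first pair is mt-Nd3, a complex I subunit, with the copy Gm28438, and the second is mt-Co1, the catalytic subunit of complex IV, with the copy Gm13340. Each line gives the first 60 bases shared by gene and copy, 5′ to 3′ on the coding strand, from GENCODE M21 transcripts (GRCm38). Capitals mark the bases at which the members of a pair differ.
mt-Nd3, chrM:9459-9518, plus strand: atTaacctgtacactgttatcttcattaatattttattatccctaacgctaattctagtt
Gm28438, chr1:24613060-24613119, minus strand: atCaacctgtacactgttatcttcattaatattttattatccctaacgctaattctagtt
mt-Co1, chrM:5328-5387, plus strand: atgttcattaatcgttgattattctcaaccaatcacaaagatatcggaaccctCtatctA
Gm13340, chr2:22589588-22589647, minus strand: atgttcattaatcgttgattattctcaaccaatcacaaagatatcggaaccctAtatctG
Over the whole aligned length, Gm28438 differed from mt-Nd3 at 1 of 345 bases and Gm13340 differed from mt-Co1 at 37 of 1545 bases. Gm28438 is 1 of 7 annotated copies that lie in a row on the minus strand of chromosome 1, within 4663 bases from 24611535 to 24616197. They carry part of mt-Co1, then mt-Co2, mt-Atp6, mt-Co3, mt-Nd3, mt-Nd4l and part of mt-Nd4. The copies of mt-Co2 (681 bases aligned), mt-Atp6 (678), mt-Co3 (783), mt-Nd4l (294) and mt-Nd4 (876) had 100% identity. A read from such a stretch cannot be assigned to the gene or to its copy by sequence, and how reads with several positions were counted is not given in the sources used here.

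Log2 ratios below are between normalized read counts with 10 added to each, on 1 scale for the 3 libraries. The addition pulls the ratios of genes with few reads towards 0. It matters little for most members, whose median count among nuclear genes was 3792.5 control reads, and 3114.5 and 3095 reads in the libraries treated without and with Et2HOBA. A gene was called higher or lower when its log2 ratio reached 1 in size.

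Nuclear subunits were mostly a little lower in both treated libraries, without reaching the limit. After glucose oxidase, 67 of 84 nuclear members lay below control, with a median log2 ratio of -0.14. Among all listed genes 51.1% lay below control and the median was -0.01. Among listed protein-coding genes 46% lay below control and the median was 0.04. After glucose oxidase plus Et2HOBA, 65 of 84 lay below control and the median was -0.24, against 50% and -0.00 for all listed genes and 49.9% and 0.00 for protein-coding genes. The nuclear members lay lower than short genes and than abundant genes, each taken as a class. Protein-coding nuclear genes with a principal transcript under 1 kb had medians of -0.00 and -0.05. Those with a mean normalized count of 500 or more had medians of 0.05 and 0.07. Genes both short and abundant were not compared as a class. Both comparisons use the same control library, so the 64 members below 0 in each are not independent observations.

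At the limit of 1, few nuclear members were called. After glucose oxidase 1 was higher and 1 lower, against a background of 12.7% of all listed genes in either direction, with 4.07% higher and 8.6% lower. Of listed protein-coding genes 9.3% were called, 4.53% higher and 4.76% lower. After glucose oxidase plus Et2HOBA 2 were higher and 3 lower, against a background of 14.7% in either direction, 6.66% higher and 8.04% lower. Of protein-coding genes 16.6% were called, 7.33% higher and 9.3% lower. Between the treated libraries none of the 84 was called, against 8.55% of all listed genes and 3.32% of protein-coding genes. At a limit of 0.5, 9 were lower and 3 higher after glucose oxidase, against 13.5% and 13.6% of protein-coding genes, and 22 were lower and 3 higher with Et2HOBA, against 21.5% and 19.1%. Many nuclear members thus differed a little and few differed by much. In summed normalized reads the nuclear members went from 398608 in control to 353348 and 334582.

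**Figure D1:**
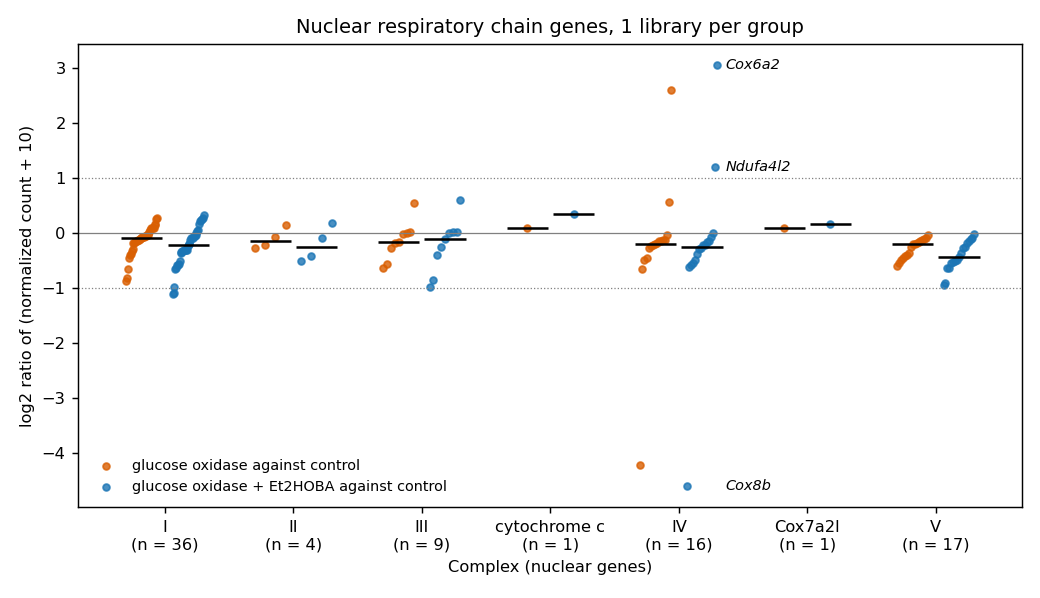
Log2 ratio to control of each nuclear subunit (vertical axis) by complex (horizontal axis), for glucose oxidase and for glucose oxidase plus Et2HOBA. Each point is 1 gene and each bar the median of its complex; all 17 ATP synthase genes lie below 0 in both comparisons, and Cox8b and Cox6a2 of complex IV stand far from the rest.

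By complex, the signs of the medians against control held under each scaling that was tried. Complex I, NADH dehydrogenase, had a median of -0.08 after glucose oxidase with 26 of 36 genes below 0, and -0.22 with Et2HOBA with 27 of 36 below 0. Its 7 nuclear core subunits, which carry the flavin and iron-sulphur clusters, had medians of -0.09 and -0.20. Ndufs1, the largest core subunit, had 5169 reads in control and, in the treated libraries, 4298 without and 4164 with Et2HOBA, or 0.889 times control (0.853 to 0.926) and 0.800 times control (0.768 to 0.834). The flavoprotein Ndufv1, where NADH is oxidised, went the other way, with 4912, 5520 and 6242 reads and log2 ratios of 0.26 and 0.34. Ndufs7, an iron-sulphur subunit, also lay above control, at 0.16 and 0.23.

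The 29 supernumerary subunits of complex I, which surround the core and serve assembly and stability, had medians of -0.07 and -0.30. Ndufc2, a membrane-arm subunit (chr7:97400003-97407802), had 10295 control reads, 5252 after glucose oxidase alone and 4903 with Et2HOBA added. The control library was high and the treated libraries were close to each other, at 0.545 times control (0.527 to 0.564) and 0.473 times control (0.457 to 0.490), log2 ratios of -0.87 and -1.08. Ndufa8, a subunit with twin cysteine motifs on the intermembrane face (chr2:36036326-36049406), had 12843, 6854 and 6570 reads and log2 ratios of -0.81 and -0.98. Among nuclear complex I members with a principal transcript length, Ndufc2 and Ndufa8 had the highest levels per length in control, at 14610 and 14450 normalized reads per kb. No exon of either overlapped an exon of another gene, and neither shared a 50-base stretch with another gene's transcript.

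Ndufb2, a small membrane-arm subunit, had 246, 143 and 109 reads and log2 ratios of -0.65 and -1.11, so it was called only with Et2HOBA. Its exons overlapped those of Gm42420 on the same strand and those of Braf on the opposite strand, and Braf had 1529, 1735 and 2281 reads. Below Ndufc2 and Ndufb2 the next members outside the limit in that comparison were Uqcrh and Ndufa8, both at -0.98, and Atp5j2 at -0.94. Above control among supernumerary subunits, Ndufa7 had 2932, 3333 and 3559 reads (log2 ratios of 0.28 and 0.27), and Ndufa6, a LYR-motif protein, had 2275, 2282 and 2717 (0.10 and 0.25). Ndufab1, the acyl carrier protein that complex I shares with fatty acid synthesis and whose symbol lies outside the pattern used, had 2764, 2569 and 2844 reads.

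Complex II, succinate dehydrogenase, the only complex with no mitochondrially encoded subunit, had medians of -0.14 and -0.26 over its 4 genes. The flavoprotein Sdha had 9183, 7151 and 6895 reads, or 0.833 times control (0.807 to 0.859) and 0.746 times control (0.723 to 0.770). Its iron-sulphur partner Sdhb had 2294, 2390 and 2625 reads, or 1.11 times control (1.05 to 1.18) and 1.14 times control (1.07 to 1.20). The catalytic pair therefore lay on opposite sides of control in both treated libraries. Of the membrane anchors that hold haem b, Sdhd had 2957, 2378 and 2093 reads (log2 ratios of -0.22 and -0.51) and Sdhc had 7848, 7046 and 7415 (-0.06 and -0.09).

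Complex III, the cytochrome bc1 complex, had medians of -0.16 and -0.11, with 7 and 5 of 9 genes below 0. Its core and redox proteins lay near control. Uqcrc1, a core protein, had 6124, 5717 and 6214 reads, and Cyc1, the haem protein cytochrome c1, had 4839, 4624 and 4918. Uqcrfs1, the Rieske iron-sulphur protein, had 4008, 3311 and 3733 reads, with log2 ratios of -0.18 and -0.11. The small supernumerary subunits were spread much more widely. Uqcrh, the hinge protein that binds cytochrome c1 (chr4:116066965-116075071), had 3518, 2135 and 1789 reads, or 0.649 times control (0.614 to 0.685) and 0.505 times control (0.477 to 0.535). Uqcr11 had 3747, 2366 and 2089 reads (log2 ratios of -0.57 and -0.85). In contrast Uqcrq, a ubiquinone-binding subunit (chr11:53427922-53430831), had 6551, 8966 and 10070 reads, or 1.46 times control (1.42 to 1.51) and 1.53 times control (1.48 to 1.58). It was the highest of the 80 nuclear members with a mean normalized count of 50 or more in both comparisons with control, and no exon of another gene overlapped it.

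Cytochrome c itself, the electron carrier Cycs that also triggers the apoptosome when released, had 2717, 2715 and 3470 reads. Against control it stood at a log2 ratio of 0.09 after glucose oxidase alone and of 0.34 with Et2HOBA added. Between the treated libraries it stood at 0.25, or 1.19 times (1.13 to 1.25), the highest among nuclear members with a mean normalized count of 50 or more. Of its transcript 28.2% of 50-base stretches were found in other genes' transcripts. Cox7a2l, which joins complexes III and IV into supercomplexes, had 4821, 4820 and 5449 reads (0.10 and 0.17).

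Complex IV, cytochrome c oxidase, had medians of -0.19 and -0.24 over 16 nuclear genes, with 14 and 13 below 0. All of them are supernumerary, since the catalytic core is mitochondrially encoded. Cox4i1, the ubiquitous form of the largest nuclear subunit, had 12584, 10804 and 11417 reads (log2 ratios of -0.12 and -0.15). Cox5a, which binds a thyroid hormone metabolite, had 4001, 3408 and 4034 (-0.13 and 0.00). Cox7b, with 5455, 3732 and 3581 reads (-0.45 and -0.61), and Cox6c, with 6932, 4648 and 4665 (-0.48 and -0.58), were the lowest after Cox8b among members with a mean normalized count of 50 or more.

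Several complex IV subunits exist as a ubiquitous form and a form known from heart, skeletal muscle, brown fat or lung. Cox8b, the heart and muscle form of subunit 8 (chr7:140898945-140900446), had 1104 control reads, against 47 after glucose oxidase alone and 36 with Et2HOBA added. The control library was high and the treated libraries low and near each other, at 0.0455 times control (0.0332 to 0.0609) and 0.0324 times control (0.0226 to 0.0451). Its ubiquitous counterpart Cox8a had 8998, 7191 and 7539 reads, or 0.854 times control (0.828 to 0.881) and 0.833 times control (0.807 to 0.859). Per kb of transcript, Cox8b stood at 2972 normalized reads in control and 135 and 96.3 in the treated libraries, while Cox8a stood at 15850 in control.

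Cox6a2, the heart and muscle form of subunit 6a (chr7:128205435-128206387), went the opposite way, with 0 control reads, 49 after glucose oxidase alone and 76 with Et2HOBA added. Against a floor of 3 control reads it was at least 17.5-fold higher and at least 25.2-fold higher. Its exons overlapped those of Itgad on the opposite strand by 70 bases, and Itgad had 13, 42 and 43 reads. The ubiquitous Cox6a1 had 7574, 6175 and 6549 reads. The muscle-type forms of subunits 8 and 6a thus differed from control in opposite directions, while their ubiquitous forms both lay slightly below it. Of the heart and striated muscle markers, Myh7, Actc1, Ckm and Mb were not listed, Tnni3 had 72, 66 and 14 reads, Tnnt2 had 41, 75 and 101, and Myh6 had 17, 2 and 0. Of the adipocyte markers, including those of brown fat, Ucp1, Cidea, Elovl3, Adipoq and Lep were not listed and Plin1 had 8, 0 and 4 reads.

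The other alternative forms were low in every library. Cox4i2, the form known from lung and from low oxygen, had 16, 6 and 15 reads, and Cox7a1, the muscle form of subunit 7a, had 20, 18 and 17 against 2699, 2309 and 1855 for Cox7a2. The difference of Cox4i2 between the treated libraries, 2.32 times (0.852 to 7.31), was not distinguishable at this depth. Ndufa4l2, a paralogue of Ndufa4 known as a target of hypoxia-inducible factor, had 1, 6 and 16 reads, or 6.41 times control (0.778 to 295.0) and 15.9 times control (2.47 to 666.7). Its exons overlapped those of Shmt2 on the opposite strand by 32 bases, and Shmt2, a mitochondrial serine enzyme, had 2849, 8570 and 11275 reads. Ndufa4 had 3181, 2558 and 2461 reads. Cox6b1, the common form of subunit 6b, had 7498, 5835 and 5417 reads, and Cox6b2 was not analysed here.

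**Figure D2:**
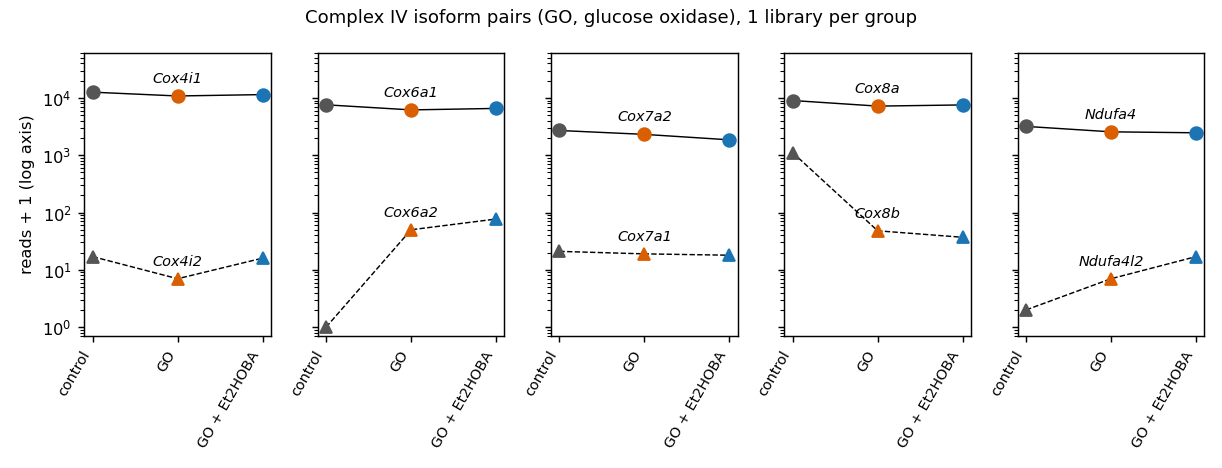
Reads plus 1 (vertical log axis) of 5 pairs of a common and an alternative form of complex IV subunits, by library (horizontal axis; GO, glucose oxidase). The common forms run nearly level, Cox8b drops from 1104 to 47 and 36 reads, and Cox6a2 goes from 0 to 49 and 76.

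Complex V, the ATP synthase, was the complex in which every nuclear gene lay below control in both treated libraries, 17 of 17 in each, under each scaling that was tried. The medians were -0.20 and -0.43. By median the catalytic F1 head lay nearest to control. Atp5b, the beta subunit that makes ATP, had 44435, 40888 and 44042 reads, or 0.984 times control (0.971 to 0.997) and 0.985 times control (0.972 to 0.998). Atp5b was also the most abundant nuclear member per length, at 22470, 22110 and 22130 normalized reads per kb. Atp5a1, the alpha subunit, had 21378, 17896 and 17792 reads (log2 ratios of -0.16 and -0.27). Over the 5 F1 genes the medians were -0.13 and -0.24, with ranges of -0.19 to -0.02 and of -0.55 to -0.02.

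The membrane part lay lower by median, though its single genes overlapped those of F1. The 3 genes of the proton-carrying c-ring, whose mature proteins are identical, had medians of -0.45 and -0.64. Atp5g3 had 11856, 7661 and 7664 reads (-0.53 and -0.64) and Atp5g1 had 4357, 2979 and 2819 (-0.45 and -0.64), whereas Atp5g2 had 5114, 4490 and 4820 (-0.09 and -0.09). The 5 supernumerary subunits, which include those that hold ATP synthase dimers together, had medians of -0.41 and -0.53. Atp5k, subunit e of the dimer interface, had 5019, 3110 and 2684 reads, or 0.662 times control (0.633 to 0.693) and 0.531 times control (0.507 to 0.557). Atp5j2, subunit f, had 9101, 6045 and 4768 reads, or 0.710 times control (0.687 to 0.734) and 0.521 times control (0.502 to 0.539). The peripheral stalk lay between, with medians of -0.23 and -0.39 over 4 genes, and its subunit b, Atp5pb, had 6713, 5586 and 6248 reads (-0.17 and -0.11).

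Grouped by role across complexes, the medians also lay below 0. The 16 nuclear genes with redox or catalytic roles had medians of -0.11 and -0.17. The 51 supernumerary genes with a mean normalized count of 50 or more had medians of -0.16 and -0.31. These medians are descriptions of 3 libraries and the difference between the classes was not tested.

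**Figure D3:**
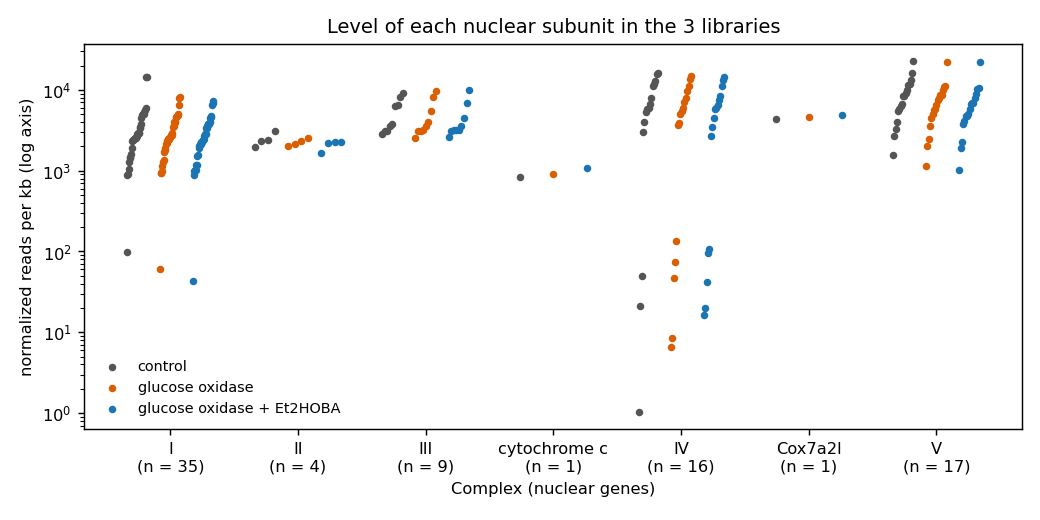
Normalized reads per kb of principal transcript (vertical log axis) of nuclear subunits by complex (horizontal axis) in the 3 libraries. Each point is 1 gene in 1 library; Ndufb1-ps, with no principal transcript, and the control value of 0 of Cox6a2 are not drawn, and Atp5b is the highest at 22470 in control.

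Between the treated libraries the nuclear members differed little. The median log2 ratio of glucose oxidase plus Et2HOBA to glucose oxidase was -0.10, with 64 of 84 below 0, against 50% of all listed genes and 53.2% of protein-coding genes. By complex the medians were -0.10 for complex I, -0.09 for II, 0.01 for III, -0.07 for IV and -0.11 for V. The median of complex III turned to -0.08 when total reads were used for scaling. Ndufb2, at -0.46, Atp5j2, at -0.45, and Cox7a2, at -0.42, were the lowest of complexes I, V and IV. The members nearest the limit were Ndufa4l2 at 0.65 and Cox4i2 at 0.59, both with 16 reads or fewer in each library.

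The 250 bases before the gene start were searched in 67 of the 84 nuclear members matched by symbol to RefSeq promoters (GRCm38.p6), on both strands. The NRF1 motif (GCGC, any base, then TGCGC), bound by a factor known for its role at respiratory chain genes, was found in 13 of 67 (19.4%), against 8.84% of 10479 listed protein-coding genes and 3.74% of 32851 promoters. The ETS motif CCGGAAG, the core bound by GABPA, was found in 12 (17.9%), against 15.1% and 6.91%. The motif TNAAGGTCA of the ERR receptors was found in 2 (2.99%, against 0.821% and 1.14%) and the ATF4 motif TTGCATCA in 0 (against 0.716% and 0.791%). Members with the NRF1 motif had median log2 ratios of -0.20 and -0.36, and those without it -0.15 and -0.29. Members with the ETS motif had medians of -0.23 and -0.49, and those without it -0.13 and -0.23.

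The promoters below were chosen after the values were seen, to set members that lay moderately below control, Sdhd and Uqcrh, beside the pair Cox8b and Cox8a. Capitals mark a motif: in Sdhd an NRF1 motif and an ETS motif, in Uqcrh an ETS motif. None of the 4 motifs was found in the windows of Cox8b and Cox8a.
Sdhd, chr9:50603850-50604099, minus strand: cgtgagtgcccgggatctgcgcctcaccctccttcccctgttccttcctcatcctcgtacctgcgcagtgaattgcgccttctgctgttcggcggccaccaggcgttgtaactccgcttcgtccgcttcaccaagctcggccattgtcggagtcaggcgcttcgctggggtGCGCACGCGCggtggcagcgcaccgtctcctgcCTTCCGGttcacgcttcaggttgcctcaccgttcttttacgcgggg
Uqcrh, chr4:116075071-116075320, minus strand: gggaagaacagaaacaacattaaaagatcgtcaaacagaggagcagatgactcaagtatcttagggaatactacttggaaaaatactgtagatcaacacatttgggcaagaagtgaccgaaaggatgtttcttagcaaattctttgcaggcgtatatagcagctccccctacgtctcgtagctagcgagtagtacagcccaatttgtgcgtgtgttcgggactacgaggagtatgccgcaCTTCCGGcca
Cox8b, chr7:140900447-140900696, minus strand: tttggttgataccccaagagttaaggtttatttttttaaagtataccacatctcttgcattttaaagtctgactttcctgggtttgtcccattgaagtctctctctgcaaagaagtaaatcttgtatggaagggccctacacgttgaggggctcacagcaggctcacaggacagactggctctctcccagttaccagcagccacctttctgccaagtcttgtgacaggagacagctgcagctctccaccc
Cox8a, chr19:7217617-7217866, minus strand: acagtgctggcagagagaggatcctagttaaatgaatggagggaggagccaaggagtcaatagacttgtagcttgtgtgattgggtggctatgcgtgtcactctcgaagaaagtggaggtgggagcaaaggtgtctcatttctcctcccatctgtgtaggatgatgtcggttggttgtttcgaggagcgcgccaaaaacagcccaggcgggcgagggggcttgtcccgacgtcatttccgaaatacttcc

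The mitochondrial genes mostly lay below control, 12 of 13 after glucose oxidase and 13 of 13 with Et2HOBA. The differences after glucose oxidase varied with position in the genome and with sequence shared with nuclear copies, which cannot be told apart for most of the genes concerned. The 13 genes held 444823 control reads, 316663 after glucose oxidase alone and 302751 with Et2HOBA added, or 1.24%, 0.905% and 0.753% of listed reads. Median log2 ratios were -0.58 after glucose oxidase and -0.77 with Et2HOBA. After glucose oxidase 6 genes were called lower and none higher, and with Et2HOBA 3 were called lower and none higher. Of all listed genes 8.6% and 8.04% were called lower in these comparisons, and of protein-coding genes 4.76% and 9.3%. Between the treated libraries 6 were called higher with Et2HOBA and none lower, against backgrounds of 6.39% and 2.15% of all listed genes and of 0.971% and 2.35% of protein-coding genes.

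The 6 genes called lower after glucose oxidase were consecutive in the genome, from mt-Co2 to mt-Nd4l (chrM:7013-10173). In this stretch log2 ratios ran from -5.09 to -2.60, and in the other 7 genes from -0.58 to 0.14, so the 2 sets did not overlap. With Et2HOBA they did: -1.16 to -0.72 in the stretch and -1.10 to -0.23 outside it. The stretch was singled out after its values were seen. Together its 6 genes held 12903 control reads, 1220 reads after glucose oxidase alone and 7262 with Et2HOBA added. These were 2.90%, 0.385% and 2.40% of the reads of the 13 genes.

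Within the stretch, mt-Atp8, a small membrane subunit of ATP synthase (chrM:7766-7969), had 996 control reads, 18 after glucose oxidase alone and 470 with Et2HOBA added. The glucose oxidase library was the low one, at 0.0193 times control (0.0114 to 0.0307), and the library with Et2HOBA stood at 0.469 times control (0.419 to 0.524). mt-Nd3, a complex I membrane subunit (chrM:9459-9806), had 1591, 56 and 709 reads, or 0.0376 times control (0.0283 to 0.0491) and 0.443 times control (0.405 to 0.484). mt-Co3, a core subunit of complex IV, had 4478, 377 and 2695 reads, or 0.0900 times control (0.0808 to 0.100) and 0.598 times control (0.570 to 0.627). In each of these the glucose oxidase library was far below the other two.

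mt-Co2, which carries the copper centre that takes electrons from cytochrome c, had 3366, 411 and 1926 reads, with log2 ratios of -2.91 and -0.81. mt-Atp6, the proton channel subunit of ATP synthase, had 2052, 309 and 1209 reads (-2.60 and -0.77). mt-Nd4l, a complex I membrane subunit, had 420, 49 and 253 reads (-2.78 and -0.72). Relative to glucose oxidase alone, the 6 genes stood between 1.83 log2 units higher (mt-Atp6) and 4.01 higher (mt-Atp8) in the library with Et2HOBA. Per length the 6 genes were the lowest of the 13 in control, at 1370 (mt-Nd4l) to 5535 (mt-Co3) normalized reads per kb, against 17650 (mt-Nd4) to 114500 (mt-Co1) for the others.

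**Figure D4:**
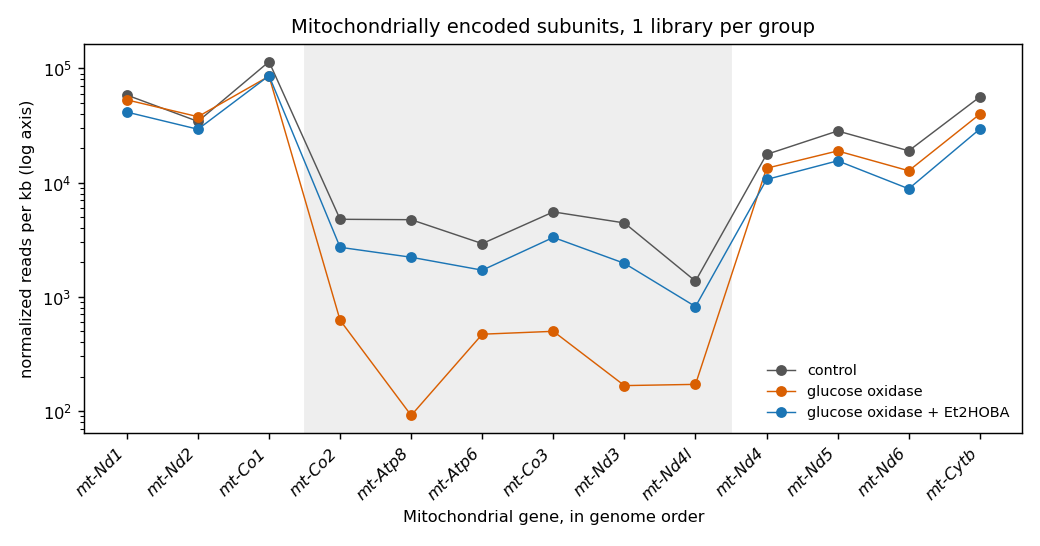
The 13 mitochondrial genes in genome order (horizontal axis) with their normalized reads per kb (vertical log axis) in the 3 libraries. Shading marks mt-Co2 to mt-Nd4l. After glucose oxidase the log2 ratios to control of these 6 neighbours ran from -5.09 to -2.60. Those of the other 7 genes ran from -0.58 to 0.14.

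Outside the stretch the differences after glucose oxidase alone were smaller. With Et2HOBA the medians were -0.73 outside and -0.79 inside, and outside the stretch the library with Et2HOBA lay below the library with glucose oxidase alone in 6 of 7 genes. mt-Co1, the haem and copper subunit that reduces oxygen, had 182605, 127332 and 138389 reads, or 0.745 times control (0.740 to 0.751) and 0.753 times control (0.748 to 0.758). mt-Cytb, the catalytic core of complex III, had 66367, 43872 and 34956 reads, or 0.707 times control (0.698 to 0.715) and 0.523 times control (0.517 to 0.530). mt-Nd5, a proton-pumping subunit of complex I, had 53286, 33325 and 29379 reads (log2 ratios of -0.58 and -0.87). mt-Nd1, at the quinone site, and mt-Nd2, a proton-pumping subunit, lay nearest to control after glucose oxidase, with 57650, 48973 and 41180 reads (-0.14 and -0.49) and with 36748, 37828 and 31600 reads (0.14 and -0.23). mt-Nd4, which follows mt-Nd4l on the same transcript, had 25102, 17756 and 15229 reads (-0.40 and -0.73). mt-Nd6, the only one of the 13 on the light strand, had 10162, 6357 and 4756 reads (-0.58 and -1.10). Relative to glucose oxidase alone these 7 genes stood between -0.52 (mt-Nd6) and 0.01 (mt-Co1).

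The low stretch largely coincided with the genes whose whole length has a near-identical nuclear copy. Of the 50-base stretches of each transcript, 100% for mt-Co2, 99.5% for mt-Atp6, 99.9% for mt-Co3, 98.0% for mt-Nd3 and 98.8% for mt-Nd4l were found in another gene's transcript. The share was 62.2% for mt-Nd4, 51.1% for mt-Co1, 8.19% for mt-Nd2, 7.61% for mt-Nd5 and 0 for mt-Nd1, mt-Nd6 and mt-Cytb. mt-Atp8 was the exception inside the stretch, with a share of 0, since no copy of it is annotated. The copies of mt-Co2 and mt-Atp6 on chromosome 1 lie 233 bases apart, and mt-Co2 and mt-Atp6 themselves lie 230 bases apart. The bases between the copies were not analysed here, and mt-Atp8 overlaps mt-Atp6 by 43 bases.

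Reads listed under the copies were low after glucose oxidase as well. Gm10925, the copy of mt-Atp6, had 3050, 562 and 1561 reads, and Gm28661, the copy of mt-Co2, had 2889, 558 and 1768. Gm28437, the copy of mt-Co3, had 3042, 590 and 1808 reads, while Gm28438, the copy of mt-Nd3, had 553, 282 and 411. Copies of genes outside the stretch were low after glucose oxidase too, where mt-Co1 and mt-Nd4 themselves stood at -0.42 and -0.40. Gm13340 and Gm29216, copies of mt-Co1, had 3505, 380 and 2750 reads and 1515, 298 and 1131 reads. Gm28439, the copy of mt-Nd4, had 1055, 220 and 688 reads, Gm13339, the copy of mt-Nd2, had 173, 15 and 194, and Gm4076, a copy of part of mt-Nd5, had 133, 19 and 55. Low values after glucose oxidase thus occurred in copies of genes beyond the stretch as well as in the stretch itself. The copies are annotated as pseudogenes, and genes other than protein-coding ones were called lower more often after glucose oxidase. Of all listed genes 8.6% were called lower (1572 of 18287), against 4.76% of protein-coding genes (633 of 13285). Between the treated libraries 6.39% (1169) and 0.971% (129) were called higher. All listed genes include the protein-coding ones, so the shares among the remaining genes alone were above 8.6% and 6.39%. Whether the copies differed from other pseudogenes was not tested. In control the copy of mt-Atp6 thus held more reads than the gene itself, whose count was 2052. Gene and copies summed gave log2 ratios of -2.73 for mt-Co2, -2.44 for mt-Atp6, -2.85 for mt-Co3, -2.54 for mt-Nd3 and -2.14 for mt-Nd4l after glucose oxidase, and of -0.76, -0.89, -0.75, -0.94 and -0.59 with Et2HOBA. Reads left uncounted because they matched several places would not be in these sums, and their part in the low values was not tested.

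**Figure D5:**
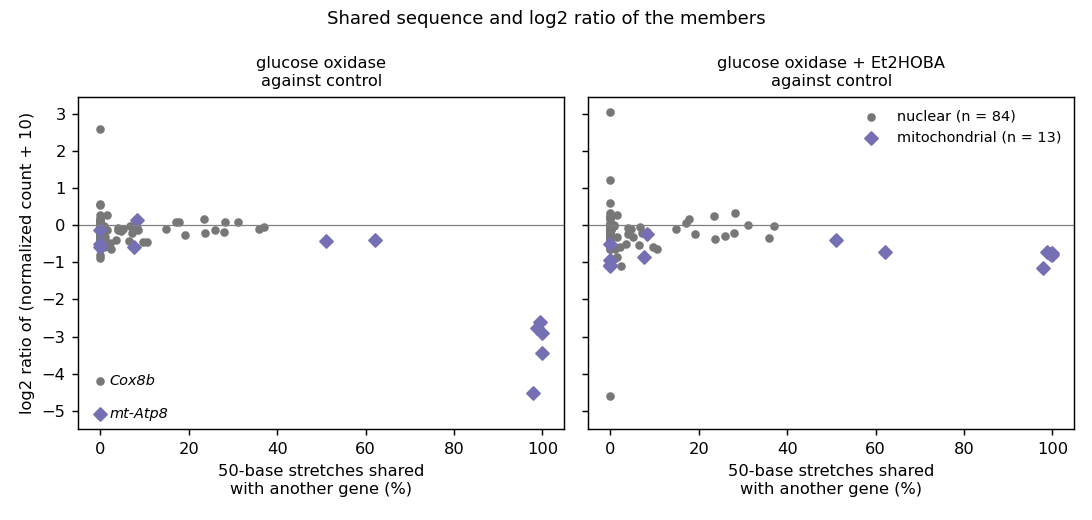
Log2 ratio to control (vertical axis) of the 84 nuclear and 13 mitochondrial genes, for glucose oxidase and for glucose oxidase plus Et2HOBA. The horizontal axis is the percent of 50-base stretches of each transcript found in another gene's transcript. Among the 13 mitochondrial genes, the 5 at 98.0% or more and mt-Atp8, at 0, are the 6 lowest after glucose oxidase.

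Nuclear members shared much less sequence. In 48 of 84 no 50-base stretch was found elsewhere, and the highest share was 37.0% for Ndufb4. The 48 had medians of -0.15 and -0.29, and the 36 with some shared stretch had medians of -0.13 and -0.21.

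Of the genes that build and serve the chain, the mitochondrial chaperones and proteases lay above control. The median of 12 was 0.49 after glucose oxidase and 0.63 with Et2HOBA, with 11 of 12 above 0 in each, and 2 and 4 called higher, against 4.07% and 6.66% of all listed genes and 4.53% and 7.33% of protein-coding genes. Lonp1, the protease of the mitochondrial matrix, had 6076, 17890 and 23739 reads (log2 ratios of 1.65 and 1.96). Hspa9, the matrix Hsp70 that pulls in imported proteins, had 13991, 33358 and 51058 reads (1.35 and 1.86), and its cochaperone Dnaja3 had 2400, 4203 and 5845 (0.90 and 1.27). Hspd1, the matrix chaperonin, had 11223, 17055 and 23163 reads (0.70 and 1.04). These counts lay above control while those of most subunits lay below it. This list, like those that follow, was chosen with earlier results of these data known, so its shares are descriptions only.

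The assembly factors lay near control. Of 46 listed of 48, 20 and 21 lay below control and none was called in either direction. As background for this list and those that follow, 12.7% and 14.7% of all listed genes were called in either direction. Of protein-coding genes 9.3% and 16.6% were called. The medians of the assembly factors were 0.04 and 0.03, and turned to -0.02 and -0.11 with total reads. The first also turned below 0 with size factors over genes that share no stretch. The 18 genes of mitochondrial genome transcription and maintenance had medians of 0.13 and 0.15 with none called, and Tfam, which packages the mitochondrial genome, had 1174, 1190 and 1332 reads. The 9 listed of 12 biogenesis regulators had medians of -0.06 and 0.09, the second turning to -0.06 with total reads, with none called, and Ppargc1a was not listed. Of 9 listed of 11 genes of uncoupling and of electron entry outside complexes I and II, 1 was called higher in each treated library and 1 lower with Et2HOBA. Of all listed genes 4.07% and 6.66% were called higher, and 8.04% lower with Et2HOBA. Sqor, which feeds electrons from hydrogen sulphide to ubiquinone, had 1952, 5004 and 6559 reads (1.45 and 1.73), and the carrier Ucp2 had 12004, 6539 and 6023 (-0.78 and -1.003). That list had medians of -0.21 and -0.63.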

How the data were processed

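Stranded libraries were made from polyadenylated RNA, per the labels' protocols, and reads were processed with STAR and featureCounts on mm10, per the submitters' processing notes. The authors deposited raw read counts for control and for glucose oxidase plus Et2HOBA, and log2 differences without p-values for each comparison, per the file headers and values. For the glucose oxidase library, whole reads were obtained here by inverting the deposited log2 differences with the control counts. For 100% of 18275 genes the result lay within 0.01 of a whole read, and with 1 read added to control 3.31% did. A further 12 genes were placed by whole reads.

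Normalization used size factors (median of ratios over the 3 libraries: 1.03, 0.965 and 1.04), and log2 ratios were taken after adding 10 to each normalized count. With a single library per group the spread is unknown, and no count model was used. Fold differences of single genes use normalized counts with no addition, with exact Clopper-Pearson intervals at 95%. Against a count of 0 the fold is taken from a floor of 3 reads and given beside the lower bound of the counting interval. With 1 to 3 reads the ratio is given with its counting interval. Levels per kb use the principal transcript of GENCODE M21, whose 17878 gene IDs of the same version all had the position given in the deposited table. Scripts used Python 3.11.15, numpy 2.4.6, scipy 1.17.1 and, for scaling factors, edgeR 4.0.16, and the recovery and ratios were tested on simulated data.

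The members and gene lists were chosen with earlier results of these data known. Named genes were every mitochondrial member, nuclear members past the limit, the highest and lowest of each complex with a mean normalized count of 50 or more, a fixed set of core subunits and isoform pairs, and at most 6 genes past the limit per list. Ndufa8, Ndufb4, Ndufs7, Sdhc, Uqcr11, Cox6c, Cox7b, Atp5g1 to Atp5g3, Ndufab1, Tfam, the marker genes, the nuclear copies, Braf, Itgad and Shmt2 fell outside that rule and were named after their values were seen. Alternatives covered scaling, the added count, a filter on low counts, shared sequence and the limit, and 2 were added after the data were seen. One core subunit under the naming rule is not reported here.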

Additional observations from a re-analysis of the deposited data

How the results depend on the processing

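No paired analysis was possible because each group had 1 library, and for the same reason no library could be left out in turn. No called member changed sign under any alternative, and of the medians over all nuclear or all mitochondrial members only the mitochondrial one between the treated libraries did. The count of nuclear members past the limit after glucose oxidase was 2, and became 4 with a pseudocount of 1, 1 at a mean normalized count of 50 or more, 12 at a limit of 0.5 and 1 over the 53 genes with no exon overlap. With Et2HOBA against control it was 5, and became 10 with total reads, 3 with the deposited log2 scale, 3 at a mean normalized count of 50 or more, 25 at a limit of 0.5 and 2 with no exon overlap. Between the treated libraries it was 0, and became 2 with a pseudocount of 1 and 2 at a limit of 0.5. Scaling by total reads moved the median of all genes to -0.06, -0.13 and -0.08 in the 3 comparisons. It moved the nuclear median with Et2HOBA from -0.24 to -0.40 and between the treated libraries from -0.10 to -0.19. The mitochondrial median after glucose oxidase went from -0.58 to -0.64 with total reads and to -0.42 over the 7 genes outside mt-Co2 to mt-Nd4l. With Et2HOBA it went from -0.77 to -0.92 with total reads and to -1.005 over the 4 genes with no shared stretch. These 4 genes include mt-Atp8, which lies within mt-Co2 to mt-Nd4l. Between the treated libraries the mitochondrial median was 0.01, and turned to -0.080 with total reads, -0.39 with no shared stretch and -0.36 outside mt-Co2 to mt-Nd4l. The cause of these moves was not tested beyond the genes or scale each alternative changes. The alternatives without exon overlap and outside mt-Co2 to mt-Nd4l were chosen after seeing the data. Nuclear members below 0 numbered 66 to 70 after glucose oxidase, 65 to 72 with Et2HOBA and 54 to 77 between the treated libraries over the scalings and added counts tried. Depth limits Cox4i2, Cox7a1 and Ndufa4l2, with at most 20 reads in a library.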

Other observations

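The ribosomal RNAs of the mitochondrial genome, which lie outside the 97 genes, had more reads in both treated libraries than in control. mt-Rnr1, the small-subunit RNA, had 10298 control reads, 33521 after glucose oxidase alone and 39858 with Et2HOBA added. mt-Rnr2, the large-subunit RNA, had 22138, 67743 and 76591 reads. The libraries were made from polyadenylated RNA, so these counts measure the part of ribosomal RNA that was captured. Both genes are transcribed from the same strand as 12 of the 13 protein-coding genes.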
